A study of Homo sapiens with 9 samples.

Results

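The MHC class I presentation genes examined here were 9 genes, HLA-B, HLA-C, HLA-E, HLA-F, B2M, TAP1, TAP2, TAPBP and NLRC5, taken by symbol from a count table of 30017 genes. They were chosen for their place in the pathway and not for their values, and the set does not hold every class I gene. RNA was sequenced from MOLM13, a human line of acute myeloid leukemia cells with monocytic traits. The study asked how losing DDX41, a DEAD-box RNA helicase, changed gene expression in these cells. All 3 groups carried a GFP-marked pLKO lentivirus that expresses a short hairpin RNA (shRNA), and GFP+ cells were sorted on day 4 after transduction. The control group (sh-Control) carried a control hairpin, and shDDX41 #1 and shDDX41 #2 each carried 1 hairpin against DDX41. Each group had 3 libraries, named by the letters A, B and D. All groups are 1 leukemia line in culture, so a hairpin and the knockdown it gives cannot be told apart within a group.

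Class I molecules show fragments of a cell's own proteins on its surface, where cytotoxic T cells and natural killer cells read them. A heavy chain (HLA-B, HLA-C, HLA-E or HLA-F here) pairs with the light chain beta-2-microglobulin, the product of B2M. The TAP1 and TAP2 proteins form the transporter that carries peptides into the endoplasmic reticulum, tapasin (TAPBP) holds the empty heavy chain next to it, and NLRC5 is the transactivator that switches on class I promoters. Interferons raise most of these genes in many cell types.

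The libraries held 16385238 to 20510032 counts. DDX41 was at 113 to 117 CPM in the sh-Control libraries, at 9.95 to 12.9 CPM with shDDX41 #1 and at 38.9 to 42.5 CPM with shDDX41 #2, so its level went with the label in all 9. CPM stands for counts scaled to a common library total, here with the totals adjusted by the trimmed mean of M-values. Library D of shDDX41 #1 stood apart from its partners. Its counts differed from theirs by a chi-square of 17.7 and 19.2 per degree of freedom, against 2.91 between A and B. The sh-Control pairs differed by 8.05 to 10.2 and the shDDX41 #2 pairs by 2.46 to 3.26, so the controls, which enter both comparisons with a hairpin, also varied more than shDDX41 #2. Results that rest on library D of shDDX41 #1 are given with and without it. The labels give the letters no meaning, but deviations from the group means correlated at 0.109, 0.202 and 0.324 for the same-letter pairs of sh-Control and shDDX41 #1, so values of this comparison are also given by letter where that changes a call. Of the markers of other cells, the 3 erythroid genes were at 0 in every library, while T cell markers summed to 0.239 to 2.18 CPM, B cell markers to 0.421 to 1.26 CPM, epithelial and fibroblast markers to 15.4 to 19.7 CPM, and NK cell markers, carried by NCAM1 and NKG7 with KLRD1 at 0, to 31.1 to 53.3 CPM. The labels do not say that the libraries of a group came from separate cultures, so p-values measure the spread between these libraries, which may be technical.

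Each of the 9 genes was on chromosome 6, 15 or 16 of the human genome (GRCh38.p14, RefSeq). The 4 heavy chain genes lie on chromosome 6, HLA-F at chr6:29723434-29738532, HLA-E at chr6:30489509-30494194, HLA-C at chr6:31268749-31272092 and HLA-B at chr6:31353875-31357179. TAP2 (chr6:32821831-32838739), TAP1 (chr6:32845209-32853704) and TAPBP (chr6:33299694-33314078) are on the same chromosome. B2M is at chr15:44711517-44718145 and NLRC5 at chr16:56989557-57083520.

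RefSeq promoter windows, from 250 bases before to 50 after a start site, were at hand for 7 of the 9 genes, with a pair of starts for TAP1. HLA-E and NLRC5 had no entry. The windows were searched on both strands for 4 short motifs. The ISRE, the interferon-stimulated response element, was taken as GAAA and a second GAAA with 2 bases of any kind between them. The NF-kB motif was taken as GGG, 2 bases of any kind, TT, 1 base of any kind and CC. The others were TGACG, the core of the X2 element, and CCAAT, the Y element. X2 and Y belong to the block of sites that NLRC5 acts through. HLA-E and NLRC5, which carry the largest differences between the hairpins, could not be shown. The TAP1 and TAP2 pair, B2M, HLA-B and HLA-C are shown since each is compared with a partner below, and the 250 bases before the start of each of these 5 genes are printed 5′ to 3′ on the strand of the gene. Capitals mark every match to these exact letters. An element with other letters stays in lower case, so a lack of capitals does not show that the element is absent.
TAP1, upstream start, chr6:32853705-32853954, minus strand: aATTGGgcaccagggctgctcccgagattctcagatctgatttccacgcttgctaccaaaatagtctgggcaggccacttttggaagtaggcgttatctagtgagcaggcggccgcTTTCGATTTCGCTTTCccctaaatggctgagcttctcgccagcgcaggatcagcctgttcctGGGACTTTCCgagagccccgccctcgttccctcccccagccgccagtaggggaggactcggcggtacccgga
TAP2, chr6:32838740-32838989, minus strand: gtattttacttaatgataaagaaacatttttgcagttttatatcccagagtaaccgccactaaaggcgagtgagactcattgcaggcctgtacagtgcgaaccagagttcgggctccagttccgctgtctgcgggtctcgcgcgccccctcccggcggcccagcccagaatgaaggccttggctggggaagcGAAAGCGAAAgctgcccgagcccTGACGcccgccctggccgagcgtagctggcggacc
B2M, chr15:44711267-44711516, plus strand: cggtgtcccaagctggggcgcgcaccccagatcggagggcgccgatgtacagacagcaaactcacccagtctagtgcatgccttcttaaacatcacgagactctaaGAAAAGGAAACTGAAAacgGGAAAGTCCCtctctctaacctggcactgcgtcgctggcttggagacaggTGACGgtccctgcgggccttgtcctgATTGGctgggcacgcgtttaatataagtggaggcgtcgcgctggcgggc
HLA-B, chr6:31357180-31357429, minus strand: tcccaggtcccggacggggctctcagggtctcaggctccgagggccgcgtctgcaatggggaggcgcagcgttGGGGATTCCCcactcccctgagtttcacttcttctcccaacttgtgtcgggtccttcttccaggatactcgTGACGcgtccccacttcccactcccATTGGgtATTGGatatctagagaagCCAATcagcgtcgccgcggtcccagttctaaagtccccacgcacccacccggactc
HLA-C, chr6:31272093-31272342, minus strand: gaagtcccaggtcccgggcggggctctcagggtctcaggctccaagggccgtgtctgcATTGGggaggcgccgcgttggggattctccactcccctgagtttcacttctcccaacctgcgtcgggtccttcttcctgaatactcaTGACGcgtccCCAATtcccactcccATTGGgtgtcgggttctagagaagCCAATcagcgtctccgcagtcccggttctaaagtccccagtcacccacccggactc

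An ISRE match was found in 5 of the 7 genes with a window, HLA-F, B2M, TAP1, TAP2 and TAPBP. That is 5 of the 8 windows of the 7 genes, against 3.57% of all 35116 windows. In TAP1, B2M and TAPBP a pair of ISRE matches overlapped and printed as 1 run of capitals. NF-kB matches were in HLA-B, B2M, TAP1 and TAPBP, against 5.68% of all windows. The shorter X2 and Y letters are common, at 24.6% and 34.6% of windows, and X2 matched in HLA-B, HLA-C, B2M and TAP2 and Y in HLA-B, HLA-C, HLA-F, B2M and TAP1. HLA-B and HLA-C carried X2 106 and 105 bases before the start, with a CCAAT 56 bases before it in both. TAP1 starts 488 bases from PSMB9, an immunoproteasome gene read in the other direction. The downstream TAP1 start held none of the 4 motifs. These matches are letters in a window and say nothing on binding in MOLM13.

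**Figure D1:**
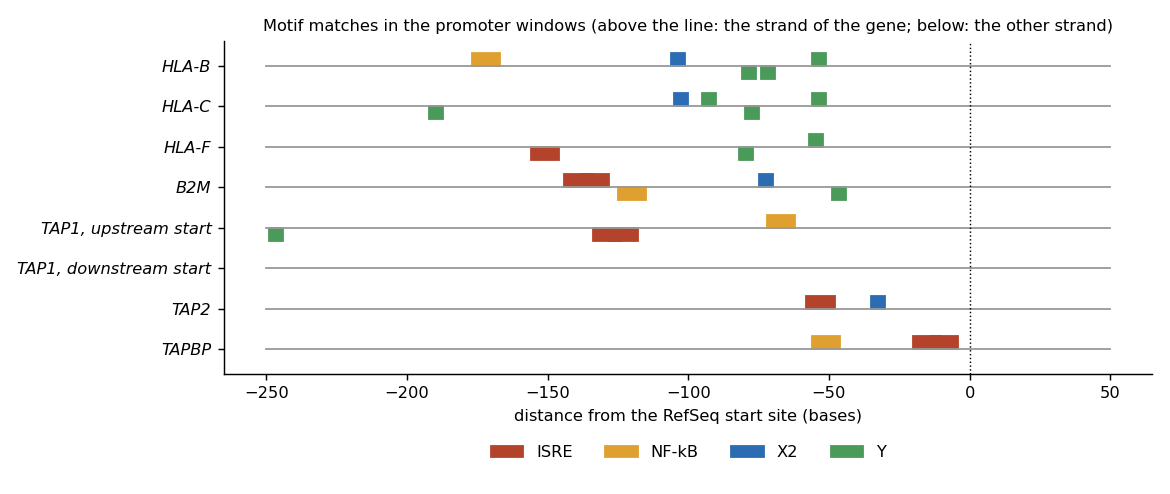
Motif matches in the promoter windows of 7 class I presentation genes, by distance from the RefSeq start site in bases, with boxes above the line for the strand of the gene and below it for the other strand. ISRE boxes appear in HLA-F, B2M, TAP1 (upstream start), TAP2 and TAPBP, and HLA-B and HLA-C share the place of X2 and of the Y nearest the start.

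The class I genes were expressed at very unequal levels. Per kilobase of exon (GENCODE v29, union of coding transcripts), the mean control level was 357 CPM per kb for HLA-C, 308 for B2M, 292 for HLA-B and 129 for HLA-E. It was 34.3 CPM per kb for TAPBP, 12.2 for TAP1, 6.29 for NLRC5 and 5.75 for TAP2. B2M and HLA-B overlapped between libraries, as did NLRC5 and TAP2, and the other neighbours in this order did not. With shDDX41 #2 the order was the same, and NLRC5 (6.29 to 6.69 CPM per kb) no longer overlapped TAP2 (5.20 to 5.77 CPM per kb). With shDDX41 #1, NLRC5 averaged 4.63 CPM per kb against 5.58 for TAP2, and HLA-B averaged 354 CPM per kb against 325 for B2M, both pairs in the reverse order of sh-Control and with overlap.

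HLA-F encodes a nonclassical heavy chain, and its row was near empty. It held 0, 0 and 1 counts in libraries A, B and D of sh-Control, 2, 2 and 3 with shDDX41 #1, and 2, 0 and 5 with shDDX41 #2. It failed the filter on low counts and was not tested, so 8 of the 9 genes entered the tests. HLA-F and its antisense gene HLA-F-AS1 share 14.8% of the HLA-F exon length, and HLA-F-AS1 held 12 to 26 counts per library.

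With shDDX41 #1, HLA-B and TAP1 rose and NLRC5 fell. That is 3 of 8 tested members called at an adjusted p under 0.05, where 47.8% of all 12712 tested genes were called, 23.7% higher and 24.1% lower. With shDDX41 #2, HLA-C, HLA-E, B2M and TAP1 rose and no member fell, 4 of 8 against 25% of all tested genes called, 11.6% higher and 13.4% lower. CPM ranges were clear of the controls for 1 of the 8 members with shDDX41 #1 and for 5 with shDDX41 #2, beside 53.1% and 43.8% of all tested genes. The median member difference was 0.05 on the log2 scale with shDDX41 #1 and 0.29 with shDDX41 #2, beside 0.01 and −0.01 over all tested genes. Both comparisons used the same control libraries. In bulk RNA, fewer cells of a kind and less RNA per cell cannot be told apart.

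**Figure D2:**
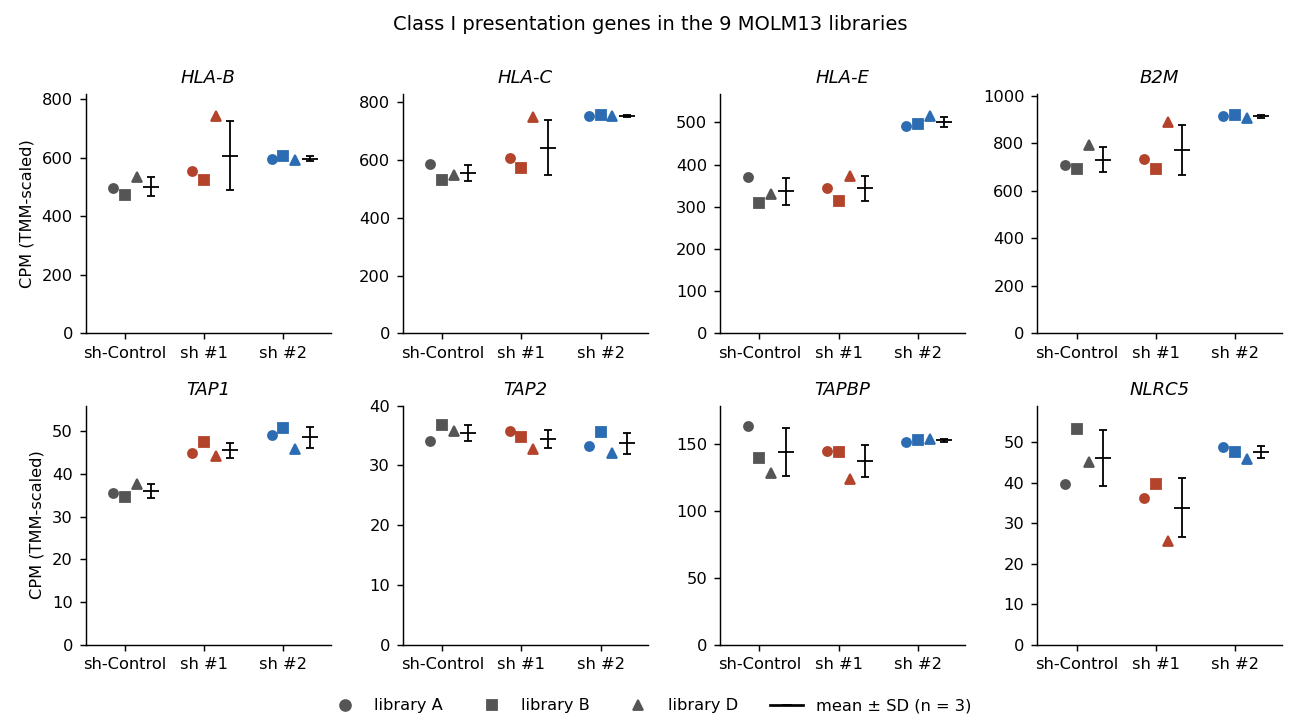
CPM of the 8 tested class I presentation genes in each library (circle A, square B, triangle D), with the mean and SD of the 3 libraries beside each group. The shDDX41 #2 libraries lie above all controls for HLA-B, HLA-C, HLA-E, B2M and TAP1, and close together for these genes other than TAP1. Library D of shDDX41 #1 is the highest of its group for HLA-B (743 CPM) and the lowest for NLRC5 (25.5 CPM).

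HLA-B encodes a classical heavy chain that presents peptides to cytotoxic T cells. It was at 495, 472 and 535 CPM in libraries A, B and D of sh-Control, at 555, 523 and 743 CPM with shDDX41 #1 and at 594, 606 and 591 CPM with shDDX41 #2. Every shDDX41 #2 library was above every control, whereas library B of shDDX41 #1 lay below the highest control. The means were 501 ± 31.6 (SD, n = 3), 607 ± 119 and 597 ± 7.91 CPM. It differed from sh-Control by 0.28 on the log2 scale (SE 0.10, adjusted p = 0.0369, edgeR quasi-likelihood test) with shDDX41 #1 and 0.25 (SE 0.10, adjusted p = 0.0841) with shDDX41 #2. The first call rested on library D. Without it the difference was 0.12 with an adjusted p of 0.124 in edgeR. The call was also lost without sh-Control A or B (0.27 and 0.24) or without any shDDX41 #2 library (adjusted p from 0.0539 to 0.0553), and held in 3 of the 9 fits that each left out 1 library. Within each letter, HLA-B was higher with shDDX41 #1 than in sh-Control. With the letter as a block on these 6 libraries, a fit chosen after seeing the data, the difference was 0.26 (adjusted p = 0.00268, edgeR). Without library D of shDDX41 #1 the shDDX41 #2 difference, 0.26, had an adjusted p of 0.00121 in edgeR.

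HLA-C, the other classical heavy chain here and a main ligand of inhibitory receptors on natural killer cells, was at 586, 530 and 549 CPM in the controls. It was at 607, 571 and 751 CPM with shDDX41 #1 and at 752, 755 and 752 CPM with shDDX41 #2. The shDDX41 #2 libraries were nearly equal to one another and all above the controls, and library D of shDDX41 #1 was at their level while A and B were near the controls. HLA-C differed from sh-Control by a log2 fold change of 0.44 (SE 0.09, adjusted p = 0.0019, edgeR) with shDDX41 #2 and 0.21 (SE 0.09, adjusted p = 0.0545) with shDDX41 #1, which was 0.10 without library D. The latter passed in 8 of 19 alternatives, with an adjusted p from 0.0124 to 0.0451. Within each letter HLA-C was higher with shDDX41 #1, and it was called with the letter as a block (0.21, edgeR adjusted p = 0.0366). On the 6 libraries alone, a fit chosen after seeing the data, the blocked difference was 0.20 (edgeR adjusted p = 0.0195).

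HLA-E, a nonclassical heavy chain that shows signal peptides of other class I chains to natural killer cells, had the largest member difference with shDDX41 #2. It was at 372, 308 and 330 CPM in sh-Control, at 344, 314 and 373 CPM with shDDX41 #1 and at 492, 497 and 514 CPM with shDDX41 #2. The shDDX41 #2 libraries lay far above both other groups, which overlapped each other. The log2 fold change with shDDX41 #2 was 0.57 (SE 0.08, adjusted p = 1.04e-04, edgeR), a rise of 48.8%. With shDDX41 #1 it was 0.03 (95% confidence interval −0.14 to 0.20, adjusted p = 0.786).

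The 4 heavy chain genes together amounted to 1452, 1311 and 1414 CPM in the controls, 1506, 1408 and 1866 CPM with shDDX41 #1 and 1838, 1858 and 1857 CPM with shDDX41 #2. Only the shDDX41 #2 libraries stood clear of the controls, and library D of shDDX41 #1 reached their level. As 1 summed feature in the fit across genes, the difference was 0.41 on the log2 scale (edgeR adjusted p = 0.00379) with shDDX41 #2 and 0.19 (adjusted p = 0.0839) with shDDX41 #1, the latter 0.08 without library D. The shDDX41 #1 sum was above sh-Control within each letter, with an adjusted p of 0.0579 in edgeR with the letter as a block. With the block on the 6 libraries alone, a fit chosen after seeing the data, the edgeR adjusted p was 0.0324. All 9 members took 0.24% of the counts in sh-Control, 0.26% with shDDX41 #1 and 0.303% with shDDX41 #2.

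The mix of heavy chains set the 3 groups apart. HLA-E made up 25.6, 23.5 and 23.3% of heavy chain counts in the controls, 22.8, 22.3 and 20.0% with shDDX41 #1, and 26.8, 26.7 and 27.7% with shDDX41 #2. The share was below every control in each shDDX41 #1 library and above every control in each shDDX41 #2 library. The exact two-sided permutation p was 0.1 for both, the smallest that 3 against 3 libraries allow. The HLA-B share was 36.0% ± 1.87 (SD, n = 3) in sh-Control, 37.9% ± 1.62 with shDDX41 #1 and 32.3% ± 0.399 with shDDX41 #2, and the HLA-C share stayed between 38.8 and 40.9% in all 9 libraries.

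B2M, the light chain shared by these class I molecules, was highest with shDDX41 #2. It was at 709, 693 and 792 CPM in sh-Control, at 734, 692 and 889 CPM with shDDX41 #1 and at 917, 918 and 908 CPM with shDDX41 #2. Every shDDX41 #2 library was above every control and above every shDDX41 #1 library, while sh-Control and shDDX41 #1 overlapped. B2M differed from sh-Control by a log2 fold change of 0.32 (SE 0.09, adjusted p = 0.0127, edgeR) with shDDX41 #2 and 0.08 (95% confidence interval −0.10 to 0.26, adjusted p = 0.477) with shDDX41 #1. Per heavy chain count, B2M stood at 0.526 ± 0.0358 (SD, n = 3) in sh-Control, 0.485 ± 0.00776 with shDDX41 #1 and 0.494 ± 0.00495 with shDDX41 #2, and the ranges of all groups overlapped.

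**Figure D3:**
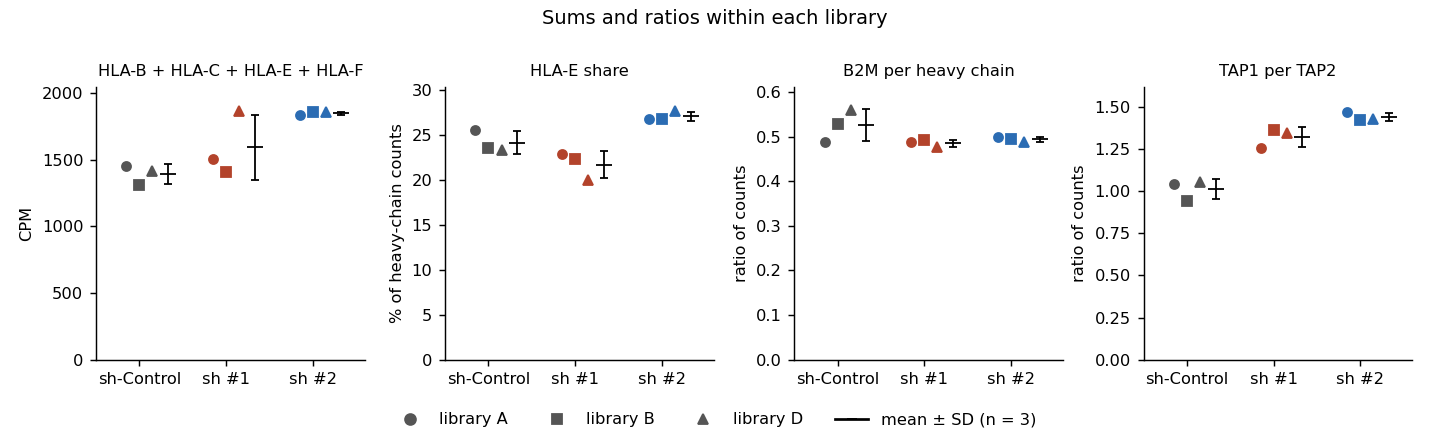
The summed CPM of the 4 heavy chain genes, the HLA-E share of heavy chain counts, the ratio of B2M to heavy chain counts and the ratio of TAP1 to TAP2 counts in each library, with the mean and SD of 3 libraries. The HLA-E share is lowest with shDDX41 #1 and highest with shDDX41 #2, the B2M ratio overlaps between groups, and the TAP1 to TAP2 ratio is above the controls with both hairpins.

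TAP1 rose with both hairpins and its partner TAP2 did not pass the test with either. TAP1 was at 35.5, 34.7 and 37.8 CPM in sh-Control, at 45.0, 47.5 and 44.1 CPM with shDDX41 #1 and at 49.1, 50.8 and 45.9 CPM with shDDX41 #2. Every knockdown library was above every control. TAP1 differed from sh-Control by a log2 fold change of 0.34 (SE 0.07, adjusted p = 0.00124, edgeR) with shDDX41 #1 and 0.43 (SE 0.07, adjusted p = 4.78e-04) with shDDX41 #2, and both were called in all 9 fits that left out 1 library. Among the members that passed the test with shDDX41 #1, TAP1 was the only one whose groups did not overlap.

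TAP2 was at 34.0, 36.7 and 35.7 CPM in sh-Control, at 35.7, 34.8 and 32.7 CPM with shDDX41 #1 and at 33.3, 35.6 and 32.1 CPM with shDDX41 #2. The 3 groups overlapped. Its differences were −0.04 (95% confidence interval −0.20 to 0.12) and −0.07 (−0.23 to 0.08), with edgeR adjusted p = 0.658 and 0.504. The ratio of TAP1 to TAP2 counts went from 1.02 ± 0.0613 (SD, n = 3) in sh-Control to 1.32 ± 0.0574 with shDDX41 #1 and 1.44 ± 0.0261 with shDDX41 #2, with no overlap of either with the controls (exact permutation p = 0.1, the smallest possible). By the annotation, 15.4% of the TAP1 exon length also lies in the antisense gene PSMB8-AS1, and 33.4% of that of TAP2 in AL669918.1 on the same strand, so how reads there were assigned could touch both rows. Of the TAP1 promoter and the TAP2 promoter printed above, both hold an ISRE match, and of this pair TAP1 alone holds an NF-kB match and TAP2 alone an X2 match.

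TAPBP was at 164, 140 and 128 CPM in sh-Control, at 145, 144 and 124 CPM with shDDX41 #1 and at 152, 153 and 154 CPM with shDDX41 #2. The controls spanned the shDDX41 #2 libraries and overlapped shDDX41 #1, whose library D lay below every control. Its differences were −0.06 (95% confidence interval −0.25 to 0.12, edgeR adjusted p = 0.561) with shDDX41 #1 and 0.09 (−0.09 to 0.27, adjusted p = 0.488) with shDDX41 #2.

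NLRC5, the transactivator, was the only member called lower against sh-Control. It was at 39.5, 53.3 and 45.1 CPM in sh-Control, at 36.2, 39.6 and 25.5 CPM with shDDX41 #1 and at 48.9, 47.6 and 45.9 CPM with shDDX41 #2. Library D of shDDX41 #1 was the lowest of all 9, and library B of that group lay just above control library A. The log2 fold change with shDDX41 #1 was −0.44 (SE 0.13, adjusted p = 0.0124, edgeR), and −0.27 (adjusted p = 0.0300) without library D. Without sh-Control B, the highest control, it was −0.32 and did not pass (adjusted p = 0.0805). Within each letter NLRC5 was lower with shDDX41 #1 than in sh-Control. With shDDX41 #2 it was 0.05 (95% confidence interval −0.23 to 0.32, adjusted p = 0.825). HLA-B was highest and NLRC5 lowest in the same library of the 9.

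**Figure D4:**
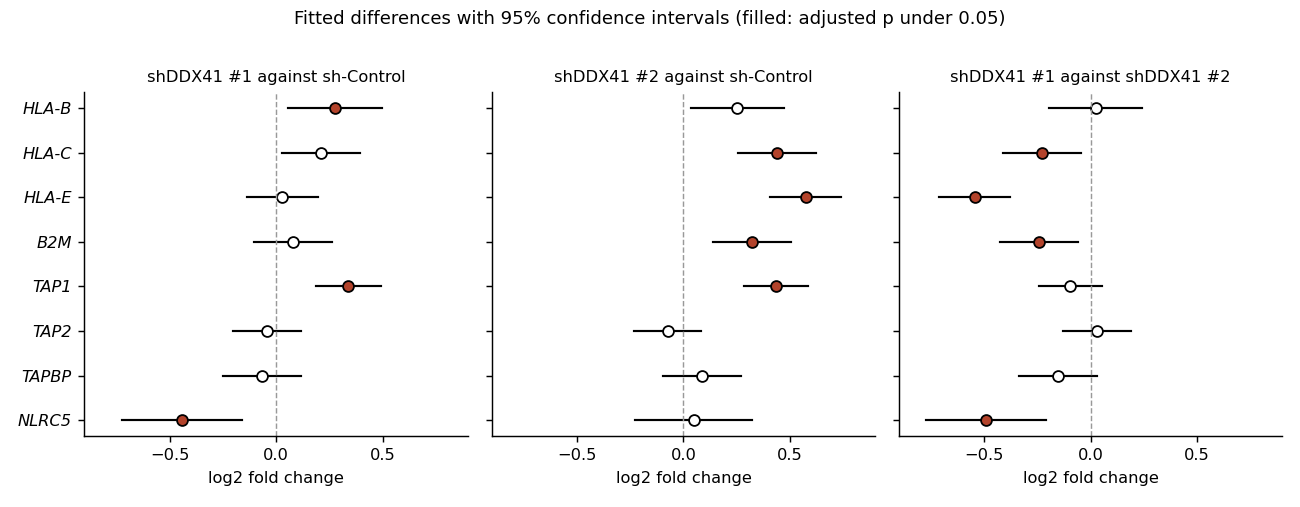
Log2 fold changes of the 8 tested members with 95% confidence intervals from the edgeR fit, for each hairpin against sh-Control and for shDDX41 #1 against shDDX41 #2, with filled points at an adjusted p under 0.05. TAP1 is filled in both comparisons with sh-Control, and HLA-C, HLA-E, B2M and NLRC5 are filled and negative between the hairpins.

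Between the hairpins, HLA-C, HLA-E, B2M and NLRC5 were lower with shDDX41 #1 than with shDDX41 #2. These 4 of 8 compare with 48.8% of all tested genes called, 24.2% lower and 24.6% higher. The differences were −0.54 for HLA-E (SE 0.08, edgeR adjusted p = 4.44e-05), −0.49 for NLRC5 (SE 0.13, adjusted p = 0.00659), −0.24 for B2M (SE 0.09, adjusted p = 0.0279) and −0.23 for HLA-C (SE 0.09, adjusted p = 0.0392). HLA-E and NLRC5 were called in all 9 edgeR fits that left out 1 library, and B2M and HLA-C in 4 of 9. That pair was lost without shDDX41 #1 A or B or any shDDX41 #2 library (adjusted p from 0.0628 to 0.164), and with upper quartile factors (adjusted p = 0.0723 for B2M, and higher for HLA-C). Without library D of shDDX41 #1 they stood at −0.36 (adjusted p = 1.24e-04) and −0.35 (adjusted p = 8.82e-05). TAP1 differed by −0.10 (95% confidence interval −0.25 to 0.05, adjusted p = 0.28), HLA-B by 0.02 (−0.20 to 0.24, adjusted p = 0.869) and TAP2 by 0.03 (−0.13 to 0.19, adjusted p = 0.761). TAPBP, at −0.15, did not pass (adjusted p = 0.157) although its groups did not overlap. That held for 5 of 8 members and 57.7% of all tested genes.

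Across the 9 libraries, log2 CPM of HLA-C went with that of B2M (Pearson r = 0.919), HLA-E (0.878) and HLA-B (0.821). TAP2 ran against the heavy chains, with r of −0.698 to −0.583, and NLRC5 against HLA-B (−0.627). These values describe 9 libraries in 3 groups, which share their group differences. The 5 tested genes outside the set whose log2 CPM was closest to the mean of the members were CCDC149 (r = 0.992), SLITRK6 (0.991), MGAT3 (0.989), CES1 (0.987) and DCAF11 (0.984). SLITRK6 held 2 to 3 counts per library in sh-Control, 3 to 4 with shDDX41 #1 and 12 to 16 with shDDX41 #2. It passed the filter on low counts only through the last group. CES1, a carboxylesterase typical of monocytes, was at 149 to 161 CPM in sh-Control, at 183 to 196 CPM with shDDX41 #1 and 282 to 314 CPM with shDDX41 #2.

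Some myeloid genes rose with shDDX41 #2. The 8 MOLM13 markers summed to 1814 to 1872 CPM in sh-Control, 1848 to 1866 CPM for shDDX41 #1 and 2744 to 2767 CPM with shDDX41 #2. LYZ, the lysozyme of monocytes and granulocytes, carried nearly all of this, at 877 to 987, 838 to 915 and 1795 to 1833 CPM. MPO, the granule peroxidase, and ITGAM, an integrin chain, also rose with shDDX41 #2, by 0.59 (adjusted p = 2.81e-05, edgeR) and 0.52 (adjusted p = 0.00175). The other 4 of the 7 tested markers were not called, with CD33 at −0.09, SPI1 at −0.06, FLT3 at −0.04 and CSF1R at −0.25, the last below every control, and the median of the 7 was −0.04. With shDDX41 #1, FLT3 (0.20) and CD33 (0.25) rose and CSF1R fell (−0.86). NK cell markers summed to 40.2 to 44.1 CPM in sh-Control, against 31.1 to 33.9 with shDDX41 #1 and 49.98 to 53.3 with shDDX41 #2, and T cell markers, all but CD3D at or near 0, to 0.975 to 1.33, 0.239 to 0.607 and 1.84 to 2.18 CPM. The part of these genes in the class I result was not tested.

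The other genes of the class I pathway were mixed. Of the 34 genes listed, 33 were among the 30017 genes and 31 were tested. With shDDX41 #1, where 47.8% of all tested genes were called, 7 rose and 7 fell. With shDDX41 #2, where 25% were called, 7 rose and 6 fell. The medians of the 31 were −0.03 with both, and without library D of shDDX41 #1 the counts were 9 and 8, and 10 and 7. PSMB9, the immunoproteasome subunit whose start lies next to that of TAP1, rose with both hairpins. It was at 8.72, 8.09 and 8.90 CPM in sh-Control, at 10.3, 11.7 and 15.96 CPM with shDDX41 #1 and at 14.3, 15.8 and 13.5 CPM with shDDX41 #2, clear of the controls in every knockdown library. Its differences were 0.56 (SE 0.15, edgeR adjusted p = 0.00571) and 0.76 (adjusted p = 0.00159), and the first was 0.37 (adjusted p = 0.0230) without library D of shDDX41 #1. PSMB8, another immunoproteasome subunit, rose with shDDX41 #2 (0.27, adjusted p = 0.0373), and PSME2, a subunit of the proteasome activator, fell with shDDX41 #1 (−0.68, adjusted p = 1.58e-05).

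Among the loading chaperones, calreticulin and tapasin's relative moved furthest. CALR was at 1850, 1786 and 1724 CPM in sh-Control, at 765, 815 and 745 CPM with shDDX41 #1 and at 1573, 1639 and 1487 CPM with shDDX41 #2. Both hairpin groups lay below all controls, with differences of −1.20 (edgeR adjusted p = 5.57e-09) and −0.19 (adjusted p = 0.0463). TAPBPL, the tapasin-related peptide editor, was at 15.2 to 17.9 CPM in sh-Control, at 14.9 to 17.9 CPM with shDDX41 #1 and 31.3 to 33.1 CPM with shDDX41 #2, a rise of 0.95 (adjusted p = 5.82e-06) in the last. CANX fell with shDDX41 #1 (−0.18, adjusted p = 0.0255), and PDIA3 was called with neither.

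Of the 7 peptide-trimming enzymes, 3 rose and 2 fell with shDDX41 #1, and 3 rose and 1 fell with shDDX41 #2. Of all tested genes, 47.8% and 25% were called. NPEPPS and ERAP2 rose with both (0.35 and 0.29, then 0.44 and 0.31), and TPP2 fell with both (−0.50 and −0.30). The aminopeptidase ERAP1, which trims peptides inside the endoplasmic reticulum, rose with shDDX41 #1 (0.33, edgeR adjusted p = 0.00831). Library D of shDDX41 #1, at 94.2 CPM, lay below sh-Control B at 96.6 CPM, and without that library D the difference was 0.44 (edgeR adjusted p = 1.01e-04). The ERAP1 difference with shDDX41 #2 was −0.09 (adjusted p = 0.511), and the hairpins differed by 0.42 (adjusted p = 0.00159).

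Among 9 tested class I-like genes, 2 rose with shDDX41 #1, and 1 rose and 3 fell with shDDX41 #2. The shares of all tested genes called were 47.8% and 25%. MR1, which presents vitamin B metabolites to MAIT cells, rose with both. It was at 29.8 to 31.4 CPM in sh-Control, at 47.7 to 49.5 CPM with shDDX41 #1 and 42.3 to 43.9 CPM with shDDX41 #2, with differences of 0.67 (edgeR adjusted p = 1.27e-06) and 0.50 (adjusted p = 8.45e-05). FCGRT, the heavy chain of the neonatal Fc receptor, rose with shDDX41 #1 (0.57, adjusted p = 4.48e-04). CD1D, a lipid-presenting chain, and the NKG2D ligands ULBP1 and MICA fell with shDDX41 #2 (−0.47, −1.31 and −0.35). ULBP1 was near the filter on low counts, with 19 to 30 counts per sh-Control library and 8 to 12 with shDDX41 #2. MICA passed narrowly (edgeR adjusted p = 0.0444). HLA-G, at 2.99 to 6.86 CPM in all libraries, was called with neither, and with shDDX41 #2 (0.56) it passed without library D of shDDX41 #1 (edgeR adjusted p = 0.0399). Of 6 tested genes of class I turnover and export, SEC24D fell with both (−0.43 and −0.53), MARCH9 rose and SPPL2A fell with shDDX41 #1 (0.58 and −0.28).

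**Figure D5:**
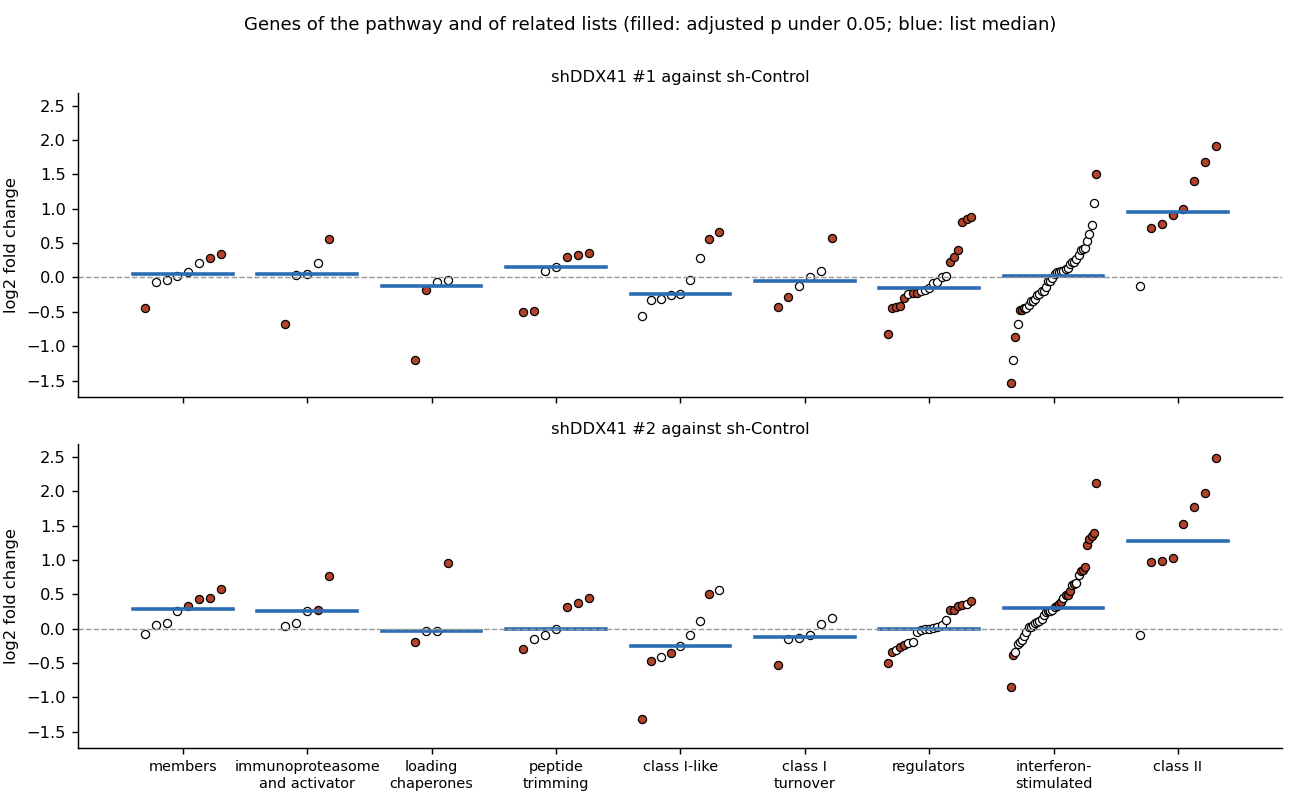
Log2 fold changes of the tested genes of each list with shDDX41 #1 (top) and shDDX41 #2 (bottom) against sh-Control, each point 1 gene, filled at an adjusted p under 0.05, with the list median as a blue line. The members' median is 0.05 and 0.29, the interferon-stimulated genes lie around 0.02 and 0.29, and the class II genes are nearly all above 0 with both hairpins.

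Genes known to regulate class I promoters moved in both directions. Of 21 tested, 6 rose and 7 fell with shDDX41 #1, where 47.8% of all tested genes were called. With shDDX41 #2, where 25% were called, 5 rose and 4 fell. IRF1, an interferon-induced activator of class I and TAP1 promoters, was at 32.97, 35.5 and 34.7 CPM in sh-Control, at 28.1, 32.6 and 32.6 CPM with shDDX41 #1 and at 45.8, 44.5 and 46.4 CPM with shDDX41 #2. The shDDX41 #2 libraries were above the controls and the shDDX41 #1 libraries below them, with differences of 0.40 (edgeR adjusted p = 0.00135) and −0.15 (adjusted p = 0.134), and the hairpins differed by −0.55 (adjusted p = 3.25e-05). STAT2 and IRF8 rose with both hairpins, IRF8 at 392 to 439 CPM in sh-Control, at 738 to 776 CPM with shDDX41 #1 and 470 to 513 CPM with shDDX41 #2. IRF2 fell with shDDX41 #1 (−0.31) and rose with shDDX41 #2 (0.34).

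Of the NF-kB genes, RELB and NFKB1 fell with both hairpins (−0.44 and −0.23, then −0.51 and −0.27), NFKB1 with shDDX41 #1 at −0.17 and no longer called without library D (edgeR adjusted p = 0.0750), and RELA was called with neither. Of the 8 genes of the complex that binds the X and Y elements, CREB1, NFYC and RFXANK rose and NFYA and NFYB fell with shDDX41 #1. In that comparison 47.8% of all tested genes were called. With shDDX41 #2 NFYA fell (−0.24, edgeR adjusted p = 0.0224) and the other 7 were not called. EZH2, the methyltransferase of the Polycomb complex PRC2, was at 93.4 to 102 CPM in sh-Control, at 48.9 to 58.8 CPM with shDDX41 #1 and 93.8 to 99.2 CPM with shDDX41 #2. It fell only with shDDX41 #1 (−0.83, adjusted p = 5.23e-07), and the hairpins differed by −0.82 (adjusted p = 5.53e-07). SUZ12 fell with shDDX41 #1 (−0.23) and EED with shDDX41 #2 (−0.34).

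Interferon-stimulated genes were mostly lower with shDDX41 #1 than with shDDX41 #2 where they passed the test. Of 40 tested, 1 rose and 5 fell with shDDX41 #1, where 47.8% of all tested genes were called. With shDDX41 #2, where 25% were called, 16 rose and 2 fell. The medians of the 40 were 0.02 and 0.29. LGALS3BP and OAS2, called higher with shDDX41 #2, held 7 to 13 and 5 to 13 counts per sh-Control library. They passed the filter on low counts through the knockdown libraries. Both enter the medians and lend no support to the counts here that include them. Between the hairpins 13 were lower and 2 higher with shDDX41 #1 (median −0.30), beside 24.2% lower and 24.6% higher of all tested genes. Without library D of shDDX41 #1, 2 rose and 4 fell with shDDX41 #1, and 19 rose and 2 fell with shDDX41 #2. With the letter as a block, 2 rose and 8 fell with shDDX41 #1. TRIM22, an antiviral ubiquitin ligase, rose with both (1.50 and 0.83), while USP18, which dampens interferon signaling, and XAF1 fell with both (−1.53 and −0.48, then −0.85 and −0.38). Many were near the limit of detection, with CXCL9 and GBP1 at 0 in every library and IFIT1 at 0.239 to 1.15 CPM. Of 7 interferon receptor and Janus kinase genes, 3 rose and 3 fell with shDDX41 #1, beside 47.8% of all tested genes called. IFNAR2 rose with both hairpins (0.26 and 0.43), and JAK2 (0.25) and IFNGR1 (0.19) rose with shDDX41 #1. IFNGR1 was no longer called without library D (edgeR adjusted p = 0.0506). JAK1 (−0.59), TYK2 (−0.32) and IFNAR1 (−0.31) fell with shDDX41 #1.

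The class II genes serve the exogenous route of presentation. Of 8 tested, 7 rose with each hairpin, where 23.7% and 11.6% of all tested genes were called higher. The medians of the 8 were 0.96 and 1.28, and without library D of shDDX41 #1 the counts were 6 and 7. HLA-DRB1, HLA-DQB1 and HLA-DMB held 5 to 12, 6 to 13 and 9 to 18 counts per sh-Control library. They passed the filter on low counts through the knockdown libraries, so they lend no support to the count of 7. CD74, the invariant chain, was at 136 to 168 CPM in sh-Control, at 231 to 278 CPM with shDDX41 #1 and 298 to 305 CPM with shDDX41 #2 (0.77, edgeR adjusted p = 3.52e-06, and 0.98, adjusted p = 1.7e-06). CIITA, the class II counterpart of NLRC5, was at 1.42 to 1.50 CPM in sh-Control, at 2.27 to 3.22 CPM with shDDX41 #1 and at 2.78 to 2.97 CPM with shDDX41 #2, a rise of 0.91 and 0.97. HLA-DRA rose by 1.91 and 1.98.

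Reads of related class I genes can be hard to place. In the reference transcripts, HLA-B shared 0 of its 1825 windows of 75 bases with the other class I genes compared. HLA-C shared 29 of 1687 with the pseudogene HLA-H and 1 with HLA-E, and HLA-E shared 40 of 2527 with HLA-G and 11 with HLA-H. TAP1 and TAP2 shared 6. The annotation also lays an HLA-B transcript over 2.12% of the HLA-C exon length, and an antisense gene, AL671883.2, over 29.2% of that of HLA-B. How the HLA alleles of MOLM13, which can differ from the reference, affected the counts was not tested, and all 9 libraries came from the same line.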

How the data were processed

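The table the authors deposited gives, for sorted MOLM13 cells, raw counts of reads per gene as whole numbers, 1 column per library, with 0 columns left unmapped. The submitters' processing notes name FastQC 0.11.7, HISAT2 2.0.5 and featureCounts 1.5.2, with hg38 and mm10 listed and no role given. The labels name a stranded kit and the methods an unstranded one, and how reads with several hits were counted is not given in the sources used here.

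The tests used edgeR 4.0.16 in R 4.3.3 (filterByExpr, minimum count 10; TMM; quasi-likelihood test on all 9 libraries together; two-sided; Benjamini-Hochberg adjustment within each of 3 contrasts; threshold 0.05). The genes tested held at least 99.9% of each library's counts. Letters were taken to pair sh-Control and shDDX41 #1, whose same-letter correlations of deviations from the group means were 0.109 to 0.324. In the other pairs of groups they were −0.0817 to 0.0244. This pairing was read from the data and not from the labels, and the letter as a block was an alternative. Alternatives used other size factors, filters and groupings, DESeq2 1.42.0 and limma 3.58.1. Scripts were tested on simulated data. All members, and from each other list up to 3 called genes per direction with the smallest adjusted p, could be named, and other genes named were chosen after their values were seen. The members and lists (class I pathway, regulators, interferon receptors, interferon-stimulated, class II, cell type markers) and the motifs were chosen with earlier results of these data known. The 5 most alike genes had the highest correlation of log2 CPM (offset 0.5) with the members' mean.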

Additional observations from a re-analysis of the deposited data

How the results depend on the processing

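Of 456 values of single members under the alternatives, 406 kept their direction and their side of the threshold, 25 lost a call, 13 gained one and 12 changed sign. With shDDX41 #2, between 3 and 5 members were called under every alternative. With shDDX41 #1, 1 member was called at an adjusted p under 0.01, and 1 to 4 when a library was left out, 1 of them without sh-Control B and 4 without shDDX41 #1 A or B. Between the hairpins 2 were called with upper quartile factors and 2 at an adjusted p under 0.01, and 2 to 4 when a library was left out, 2 without shDDX41 #1 A or B or any shDDX41 #2 library. Same-letter deviations paired sh-Control with shDDX41 #1 and not the other groups, where they correlated at −0.0817 to 0.0244, and 5 of 9 libraries correlated best with their own letter. With the letter as a replicate block, 4, 5 and 4 members were called in the 3 comparisons. Blocked on the 6 libraries of the first, an alternative chosen after seeing the data, 4 members were called and the summed heavy chains, at 0.19, passed (adjusted p = 0.0324). Between sh-Control and shDDX41 #1 the block changed the call of no other member than HLA-C. The summed heavy chains differed with shDDX41 #1 by 0.27 (edgeR adjusted p = 0.0255) with upper quartile factors, and by 0.075 to 0.28 when a library was left out. Between the hairpins the sum, not called in the report (−0.22, adjusted p = 0.0556), was called with DESeq2 size factors (−0.22, adjusted p = 0.0488), library size only (−0.21), the DESeq2 Wald test (−0.22), limma voom (−0.23) and the replicate block (−0.23), and ran from −0.34 to −0.14 when a library was left out. The causes of these moves were not tested. Members near 0 changed sign, none of them called. When a library was left out, the shDDX41 #1 difference ran from −0.030 (without sh-Control B) to 0.10 for HLA-E, which was at −0.025 without library D of shDDX41 #1. It ran from −0.026 (without that library D) to 0.16 for B2M, from −0.074 to 0.0032 for TAP2 and from −0.14 to 0.037 (without sh-Control A) for TAPBP, which was at 0.016 without library D. With upper quartile factors TAP2 was at 0.032 and TAPBP at 0.010. NLRC5 with shDDX41 #2 ran from −0.051 (without sh-Control A) to 0.17. Between the hairpins HLA-B ran from −0.15 (without shDDX41 #1 D, adjusted p = 0.055) to 0.12, and TAP2 from −0.0032 (without shDDX41 #2 D) to 0.072, with −0.00064 without shDDX41 #1 A. With no filter, HLA-F had an adjusted p of 0.186 and 0.284 against sh-Control, on 1, 7 and 7 counts per group. HLA-F, at 5 counts or fewer per library, was too low to test. Of 52 interferon-stimulated genes listed, 51 were among the 30017 genes and 40 passed the filter on low counts, as did 8 of 13 class II genes.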
